A study of Plutella xylostella with 6 samples.

Results

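Insects make melanin and harden their cuticle from the same starting compound, tyrosine. Tyrosine hydroxylase turns it into dopa, aromatic-L-amino-acid decarboxylases turn dopa into dopamine, and acetyltransferases and other enzymes make the acyldopamines that laccases oxidize to cross-link cuticle proteins. Phenoloxidases, which haemocytes make as inactive precursors, do a related oxidation in the haemolymph, where melanin encases wounds and microbes, and yellow proteins act on the dopachrome branch or mark pigmented cuticle in *Drosophila*.

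The genes described here are the 25 of 21946 rows of the deposited table whose annotation names a phenoloxidase, a laccase, a protein yellow, an aromatic-L-amino-acid decarboxylase, a tyrosine 3-monooxygenase or a dopamine N-acetyltransferase, with activators of phenoloxidase left out. They fall into 2 phenoloxidase, 6 laccase and 9 yellow rows, 1 tyrosine hydroxylase, 4 decarboxylases and 3 dopamine N-acetyltransferases. The words dopa decarboxylase, dopachrome and ebony were searched as well and matched 0 rows. RNA came from whole second-instar larvae of the diamondback moth, *Plutella xylostella*, 3 libraries of larvae treated for 12 hr with DMNT, a plant homoterpene, and 3 control libraries, with no genotype or strain given in the labels. The bioassays of the study gave DMNT in forage with paraffin oil as solvent and paraffin oil alone as control, and they kept to 1 fixed dose except where concentrations were compared. Neither the labels nor the sequencing methods say whether these libraries had that dose and solvent, or how many larvae each held. The p-values therefore measure the spread between these samples only. In whole bodies, fewer cells of a type and less RNA per cell cannot be told apart.

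The total count was 39853422 to 54671573 in the DMNT libraries and 49553028 to 56381123 in the control libraries, and the members had 36 to 34940 counts in a library. All 25 passed the filter on low values, a mean FPKM (fragments scaled to exon length and to the mapped reads of the library) of at least 0.5, which 17709 rows passed. Levels below are FPKM as deposited, and changes are log2 fold changes of DMNT over control from edgeR's quasi-likelihood test on the counts. A gene is called at the study's own thresholds, a 2-fold difference or more (1 on the log2 scale) with an unadjusted p under 0.05. Genes of each tissue marker list passed the same filter. Of the genes listed, these were 111 of 179 for midgut, 99 of 112 for cuticle, 16 of 19 for muscle, 21 of 33 for nervous system, 10 of 18 for fat body and 9 of 20 for haemocytes. The lists were matched by words in the descriptions, and how particular their genes are to a tissue was not tested.

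No melanization or tanning gene passed the test for a change at 12 hr. By edgeR's quasi-likelihood test 0 of 25 passed the thresholds, where 0.87% of all genes tested did (0.367% higher and 0.503% lower in DMNT larvae). At an unadjusted p under 0.05 stood 0 of 25, beside 3.43% of all genes tested (1.75% higher and 1.68% lower), and at an adjusted p under 0.05 also 0, beside 0.0113%. DESeq2 and limma on log2(FPKM + 0.1) also called 0 of 25, each with 1 gene at an unadjusted p under 0.05. The libraries of the groups overlapped for every one of the 25 genes, while 8.37% of all genes tested had groups that did not overlap. Of the 25 genes, 11 had a log2 fold change above 0 and 14 below it, with a median of -0.05, beside -0.0032 over all genes tested. The changes ran from -0.48 to 0.69, and every adjusted p was 0.9999 (Benjamini-Hochberg over all genes tested). In size, 2 of the 25 changes reached 0.5 on that scale, as did 12.6% of all genes tested.

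**Figure D1:**
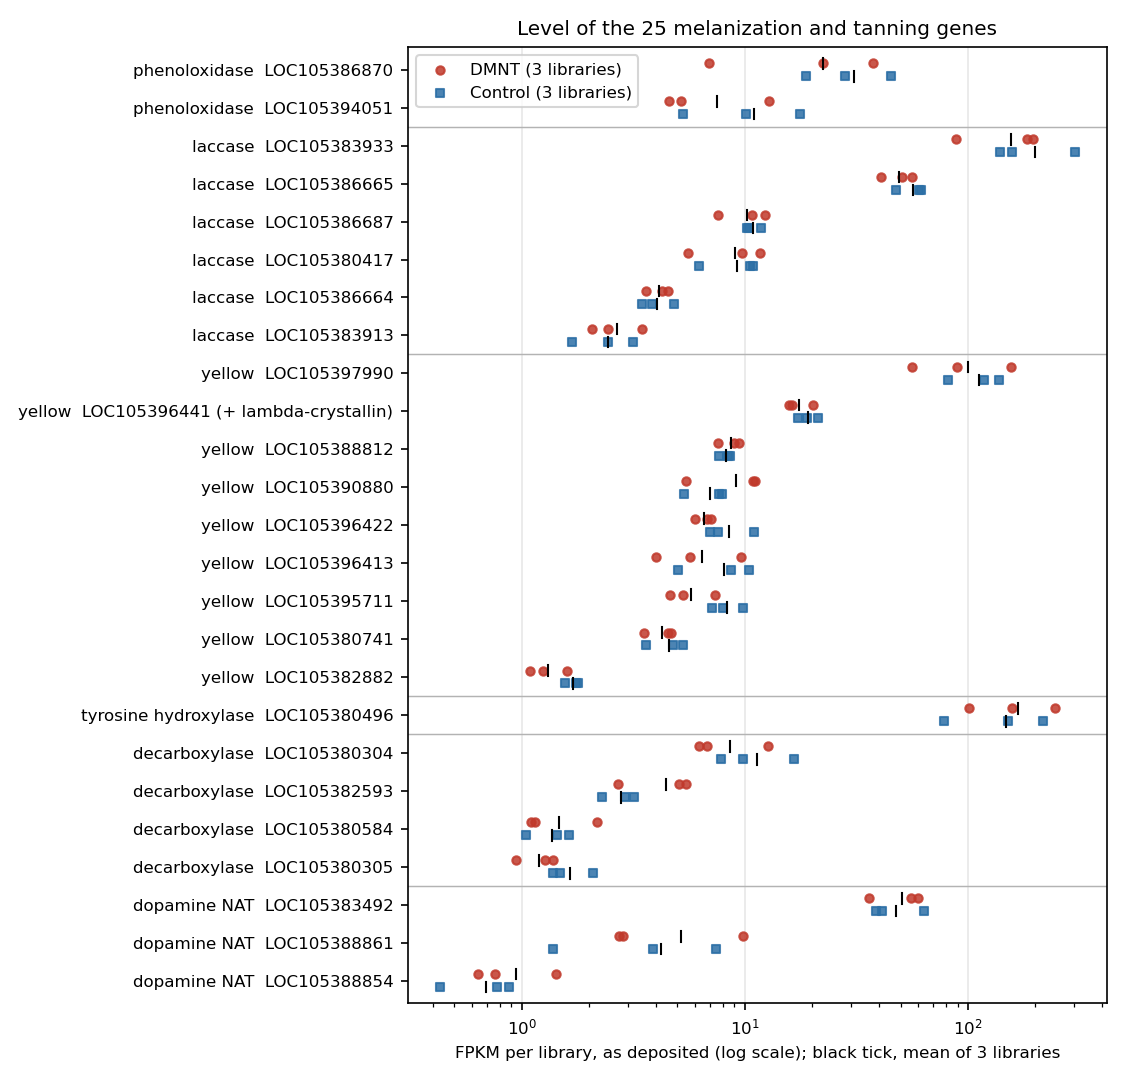
FPKM in each of the 3 DMNT (circles) and 3 control (squares) libraries for the 25 genes, on a log axis, grouped by role and ordered by mean level within a role, with the group mean as a black tick. The mean levels span 0.82 to 178 FPKM, and the DMNT and control points of every gene overlap.

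The precision differed among the genes. For 13 of 25 the 95% interval of the log2 fold change lay wholly between -1 and 1, so that a change of the size the study used as threshold was outside it, and 67.8% of all genes tested had such an interval. For the other 12, among them both phenoloxidases, tyrosine hydroxylase and laccase-1, the interval reached past -1 or 1, so that a change of that size lay inside it. The spread between libraries of a group was wide. Its median over the members was an SD of 0.44 on the log2 scale, beside 0.29 over all genes tested, and 12 of 25 members differed at least 2-fold between libraries of the same group, as did 28.7% of all genes tested.

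**Figure D2:**
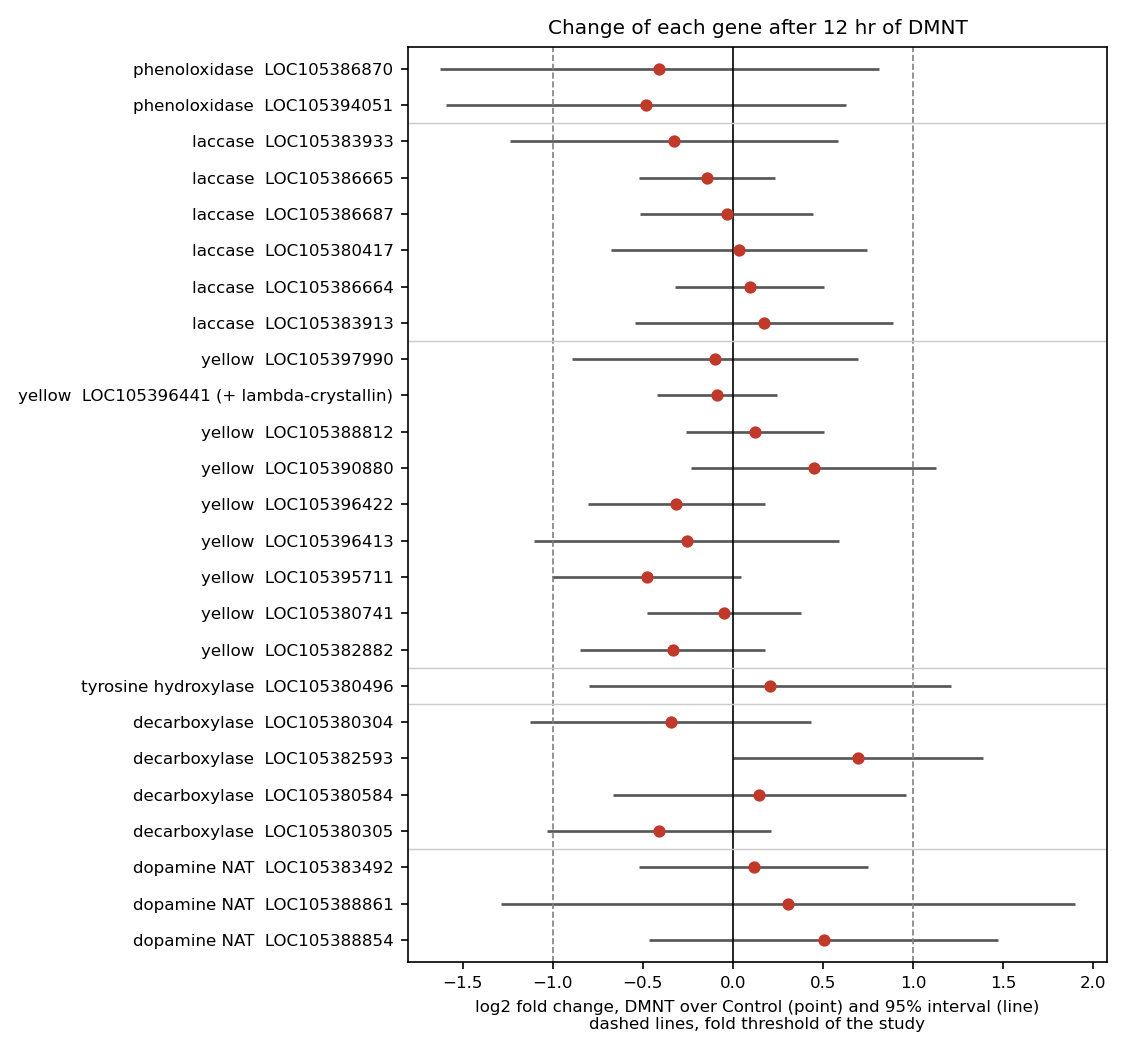
Log2 fold change of DMNT over control (points) with its 95% interval (lines) for the 25 genes in the same order, with dashed lines at the fold threshold of -1 and 1. Every point lies between -0.48 and 0.69, and 13 intervals stay within the dashed lines.

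Tyrosine hydroxylase (LOC105380496, described as tyrosine 3-monooxygenase) makes dopa from tyrosine and is the entry step for both pigment and cuticle cross-linking. It was the second most abundant of the 25 genes, with a mean of 159 FPKM over the 6 libraries. It had 101, 158 and 246 FPKM in the DMNT libraries, against 152, 78.1 and 218 FPKM in the control libraries. Each group held a library near 100 or below and one above 200, with means of 168 ± 73.2 FPKM in DMNT and 149 ± 69.8 FPKM in control larvae (SD, n = 3 each). The difference, 0.21 on the log2 scale (standard error 0.44, 95% interval -0.80 to 1.21), was smaller than that spread. The interval left out a fall of 2-fold and took in a rise of that size.

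The 4 decarboxylases were an order of magnitude lower than tyrosine hydroxylase. LOC105382593 is annotated to aromatic-L-amino-acid decarboxylase, the enzyme that makes dopamine from dopa and serotonin from 5-hydroxytryptophan. It had the smallest p and the largest change of the 25 genes. It stood at 2.71, 5.09 and 5.46 FPKM in the DMNT libraries, against 2.91, 2.30 and 3.19 FPKM in the control libraries, so that DMNT replicates 2 and 3 lay above all controls and DMNT replicate 1 among them. The log2 fold change was 0.69 (standard error 0.30, 95% interval -0.0021 to 1.39), with p = 0.0505 by edgeR's quasi-likelihood test, adjusted p = 0.9999, and p = 0.3 by an exact two-sided permutation test, where 3 against 3 libraries allow no p below 0.1. The unadjusted p was 0.0364 with DESeq2 and 0.00489 by edgeR without DMNT replicate 1, where the log2 fold change was 0.95. It was 0.0880 and 0.0868 in the limma fits, and 0.172 by edgeR without DMNT replicate 3, where the log2 fold change was 0.49. The fold stayed below the threshold throughout.

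LOC105380304, the most abundant decarboxylase, carried 60.7% of the mean FPKM of the 4. It stood at 12.7, 6.26 and 6.81 FPKM in the DMNT libraries, against 9.86, 16.6 and 7.81 FPKM in the control libraries, with a change of -0.35 on the log2 scale (standard error 0.34). Single libraries carried this value, which was -0.74 without DMNT replicate 1 and -0.03 without control replicate 2. LOC105380305 had 1.27, 1.39 and 0.94 FPKM in the DMNT libraries and 2.09, 1.38 and 1.49 FPKM in the control libraries, with a change of -0.41 on the log2 scale (standard error 0.27). Both lie next to each other, both in the assembled loci of the authors and in a newer RefSeq annotation of the species, where 0 protein-coding genes stand between them, and reads of the pair may be shared, since their descriptions are alike. LOC105380584, annotated besides to tyrosine decarboxylase activity, which makes tyramine in place of dopamine, had 1.15, 1.1 and 2.19 FPKM in the DMNT libraries and 1.44, 1.05 and 1.64 FPKM in the control libraries (log2 fold change 0.14, standard error 0.35).

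Dopamine N-acetyltransferase makes N-acetyldopamine, which serves in cuticle tanning and removes dopamine in nerve tissue. LOC105383492 carried 89.9% of the mean FPKM of the 3 genes so described. It had 36.2, 55.8 and 59.7 FPKM in the DMNT libraries, against 41.3, 38.8 and 63.4 FPKM in the control libraries. Its log2 fold change was 0.11 (standard error 0.28), and its 95% interval of -0.52 to 0.75 left out a 2-fold change either way. LOC105388861 had 2.86, 2.74 and 9.88 FPKM in the DMNT libraries, against 3.90, 1.39 and 7.41 FPKM in the control libraries. Its SD within groups, 1.16 on the log2 scale, was the highest of the 25 genes, with a range of 3.75-fold among the DMNT and 5.88-fold among the control libraries, and replicate 3 was the highest in both groups. Its log2 fold change of 0.31 (standard error 0.69) became -0.60 without DMNT replicate 3. LOC105388854, the least abundant of the 25 at a mean of 0.82 FPKM, had 105, 55 and 48 counts in the DMNT libraries and 77, 60 and 36 counts in the control libraries (log2 fold change 0.50, standard error 0.42). Without DMNT replicate 1 its log2 fold change was 0.086.

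The 9 yellow rows belong to a family that the deposited annotation joins under 1 orthologue, dopachrome isomerase. In *Drosophila* the founding gene is needed for black pigment of the cuticle, and members of the yellow-f type convert dopachrome. Only LOC105380741 and LOC105382882 carry the dopachrome isomerase term in the GO column, while the other 7 carry cuticle pigmentation. LOC105397990 made up 63.0% of the mean FPKM of the family. It had 156, 56.5 and 89.8 FPKM in the DMNT libraries and 118, 138 and 81.7 FPKM in the control libraries, with the highest and the lowest of the 6 values both in the DMNT group. Its log2 fold change was -0.10 (standard error 0.34, 95% interval -0.89 to 0.69).

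LOC105395711 had the second smallest p of the 25 genes. It stood at 4.61, 5.29 and 7.35 FPKM in the DMNT libraries, against 9.82, 8.0 and 7.12 FPKM in the control libraries, and only DMNT replicate 3 reached the control range. The log2 fold change was -0.48 (standard error 0.23, 95% interval -1.004 to 0.046, unadjusted p of 0.0687 by edgeR), and without DMNT replicate 3 it was -0.71 with an unadjusted p of 0.0110, against -0.34 without DMNT replicate 1 or control replicate 1. The authors' assembly placed a second locus without a description under this symbol. That locus had 2306, 1687 and 2046 counts in the DMNT libraries and 2893, 1385 and 2598 in the control libraries, more than the 384 to 974 of the described row. With the counts of both loci summed, the log2 fold change was -0.05.

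In the same stretch of the assembly as LOC105395711 lay LOC105396413 and LOC105396422, which are also next to each other in the newer RefSeq annotation. The pair did not share a pattern. LOC105396413 had 5.69, 4.02 and 9.67 FPKM in the DMNT libraries and 10.5, 8.66 and 5.05 FPKM in the control libraries, so that replicate 3 was highest under DMNT and lowest in the controls (log2 fold change -0.26, standard error 0.37). LOC105396422 varied less, with 5.97, 6.76 and 7.08 FPKM in the DMNT libraries and 7.03, 11.0 and 7.63 FPKM in the control libraries (log2 fold change -0.31, standard error 0.21). LOC105390880 was the yellow row with the largest positive value, with 10.9, 11.1 and 5.48 FPKM in the DMNT libraries and 7.69, 7.89 and 5.35 FPKM in the control libraries. Both groups had their lowest value in replicate 3, and the log2 fold change of 0.45 (standard error 0.29) was 0.70 without DMNT replicate 3, with an unadjusted p of 0.0198 by edgeR and still below the fold threshold. It was 0.30 without DMNT replicate 1 or 2, with unadjusted p-values of 0.390 and 0.392.

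Of the dopachrome isomerase pair, LOC105382882 had 1.25, 1.60 and 1.09 FPKM in the DMNT libraries and 1.57, 1.79 and 1.76 FPKM in the control libraries (log2 fold change -0.33, standard error 0.22), with DMNT replicate 2 inside the control range. LOC105380741 stood at 3.53 to 4.68 FPKM in the DMNT libraries and 3.62 to 5.30 FPKM in the control libraries, with a 95% interval of -0.48 to 0.38. LOC105388812 and the row that joins LOC105396441 with the neighbouring gene for lambda-crystallin were the steadiest of the family. LOC105388812 had 7.62 to 9.42 FPKM in the DMNT libraries and 7.67 to 8.56 FPKM in the control libraries. These values leave out a second locus under its symbol. That locus had 227, 131 and 161 counts in the DMNT libraries and 118, 221 and 184 in the control libraries, against 709 to 905 for the described row. The joined row had 15.8 to 20.2 FPKM in the DMNT libraries and 17.3 to 21.3 FPKM in the control libraries, and its reads cannot be assigned to either gene.

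Laccases are multicopper oxidases. In beetles and moths laccase-2 oxidizes the acyldopamines of the new cuticle, whereas other insect laccases are found in the gut and salivary glands. LOC105383933, described as laccase-1, was the most abundant of the 25 genes, at a mean of 178 FPKM, 69.2% of the mean FPKM of the 6 laccases. It had 88.8, 185 and 196 FPKM in the DMNT libraries, against 158, 139 and 303 FPKM in the control libraries. The lowest value was a DMNT and the highest a control library, with the other 4 between 139 and 196 FPKM, and the means were 157 ± 59.0 FPKM in DMNT and 200 ± 89.8 FPKM in control larvae (SD, n = 3 each). The log2 fold change was -0.33 (standard error 0.39, 95% interval -1.24 to 0.58). Without control replicate 3 it was 0.16.

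LOC105386665, described as laccase and annotated to chitin-based cuticle development, was far steadier. It had 56.5, 40.7 and 50.8 FPKM in the DMNT libraries and 61.5, 60.6 and 47.6 FPKM in the control libraries. Its log2 fold change of -0.14 (standard error 0.16) had a 95% interval of -0.52 to 0.23, which left out a 2-fold change either way. Next to it in the assembly is LOC105386687 (laccase-15-like), with the same annotation, and the locus after that is LOC105386664 (laccase-2-like), with 3 protein-coding genes between it and LOC105386665 in the newer RefSeq annotation. LOC105386687 had 12.3, 7.62 and 10.8 FPKM in the DMNT libraries and 10.5, 11.9 and 10.2 FPKM in the control libraries (log2 fold change -0.03, standard error 0.21), and LOC105386664 stood at 3.63 to 4.54 FPKM in the DMNT libraries and 3.47 to 4.83 FPKM in the control libraries. For all 3 laccases of this stretch the interval lay within -0.52 and 0.51. The assembly placed a second locus under the symbol LOC105386665, which these values leave out. That locus had 27, 34 and 15 counts in the DMNT libraries and 111, 51 and 45 in the control libraries. The described row had 7038 to 12012 counts.

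The other 4 laccases, laccase-1 and LOC105386664 among them, carry ferroxidase activity in the GO column. Of these, LOC105380417 had 9.70, 5.59 and 11.8 FPKM in the DMNT libraries and 10.9, 10.5 and 6.25 FPKM in the control libraries. LOC105383913 (putative laccase-11), which lies next to laccase-1, stood at 2.08, 2.44 and 3.48 FPKM in the DMNT libraries and 1.69, 2.44 and 3.17 FPKM in the control libraries. Neighbouring laccases thus differed in level, laccase-1 having a mean of 178 FPKM and LOC105383913 one of 2.55 FPKM.

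Both phenoloxidase rows carry the description phenoloxidase subunit 2-like, so reads of similar stretches may have been split between them. Phenoloxidase circulates as a proenzyme that clip-domain proteases cut at wounds and sites of infection. LOC105386870 had 22.6, 37.6 and 6.90 FPKM in the DMNT libraries, against 28.2, 45.5 and 18.8 FPKM in the control libraries. DMNT replicate 3 was below every other library, and the other DMNT values lay within the control range. The means were 22.3 ± 15.3 FPKM in DMNT and 30.8 ± 13.6 FPKM in control larvae (SD, n = 3 each). The log2 fold change was -0.41 (standard error 0.53, 95% interval -1.63 to 0.81), and it was 0.01 without DMNT replicate 3 and -0.99 without DMNT replicate 2. The limma fits gave -0.68 and -0.63.

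LOC105394051 was lower, at a mean of 9.28 FPKM. It had 5.19, 12.8 and 4.56 FPKM in the DMNT libraries, against 10.1, 17.7 and 5.32 FPKM in the control libraries. Both groups spread over more than 2-fold, and the log2 fold change was -0.48 (standard error 0.48, 95% interval -1.59 to 0.63). One library decided whether it was called. Without DMNT replicate 2 the value was -1.08 with an unadjusted p of 0.0412 by edgeR and passed the thresholds, the only member to do so when a library was left out, and without control replicate 2 it was -0.02.

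Markers of haemocytes, the cells that make prophenoloxidase in moths, were set beside these values. The 20 listed genes summed to 136 to 147 CPM (counts scaled to the TMM-normalized library size) in the DMNT libraries. In the control libraries they summed to 138 to 151 CPM, and 1 of them was at 0 in every library. Most of the summed FPKM of the list, 34.9 to 41.4 in a library, came from genes described as integrin alpha. LOC105392926 (integrin alpha-PS3-like) alone had means of 15.9 FPKM in DMNT and 16.4 FPKM in control larvae. How particular the integrins are to haemocytes was not tested. Of the 9 tested, 0 passed the thresholds, and 3 had a log2 fold change above 0 and 6 below it, with a median of -0.04. Hemocytin (LOC105381568), a clotting protein of haemocytes, had 0.78, 0.83 and 0.66 FPKM in the DMNT libraries and 0.92, 1.22 and 0.75 FPKM in the control libraries. It had its highest value in replicate 2 and its lowest in replicate 3 of each group, as both phenoloxidases did, and its log2 fold change was -0.30 (standard error 0.19), the lowest of the 9. It was the only 1 of the 9 with that order of libraries. The part of haemocyte number in the phenoloxidase values was not tested.

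Several of the genes varied between libraries in a shared order. The pattern was noticed after the values were seen and is given without a test. Tyrosine hydroxylase, laccase-1, the N-acetyltransferase LOC105383492 and the decarboxylase LOC105382593 shared 1 order, lowest in replicate 1 and highest in replicate 3 of the DMNT libraries, and lowest in replicate 2 and highest in replicate 3 of the control libraries. These 4 of 25 members stood beside 7.19% of all genes tested with that order. Both phenoloxidases were highest in replicate 2 and lowest in replicate 3 of either group, an order that 5.07% of all genes tested had.

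**Figure D3:**
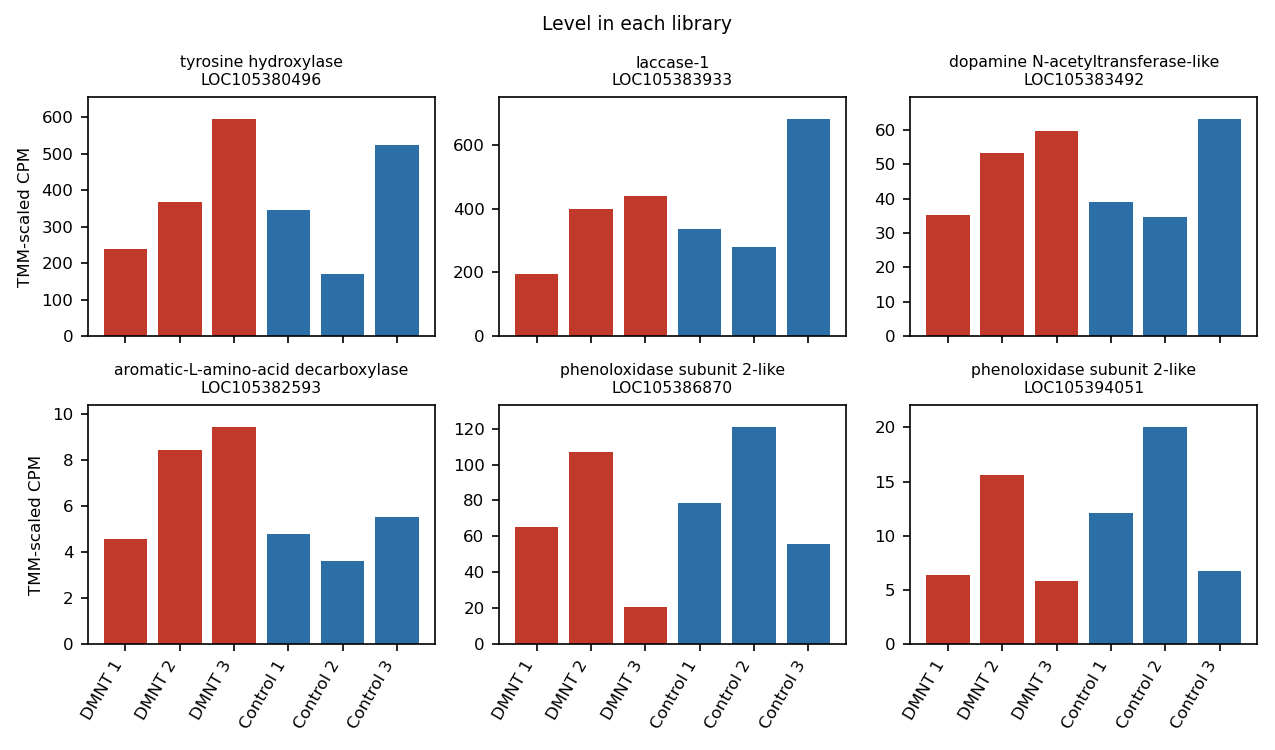
TMM-scaled CPM in each library for 6 genes, DMNT libraries in red and control libraries in blue, each panel with its own axis from 0. Tyrosine hydroxylase, laccase-1, the N-acetyltransferase and the decarboxylase are highest in replicate 3 of both groups. The 2 phenoloxidases are highest in replicate 2 and lowest in replicate 3 of both groups.

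Sums over the lists were set beside that order. The FPKM of the 112 listed cuticle protein genes summed to 9817, 18115 and 17804 in DMNT replicates 1, 2 and 3, against 17816, 14535 and 21104 in control replicates 1, 2 and 3. As for laccase-1, DMNT replicate 1 was the lowest of its group, control replicate 2 the lowest of its own and control replicate 3 the highest of all. Unlike laccase-1, the sum was higher in DMNT replicate 2 than in DMNT replicate 3, so it did not have the full order. Of 99 tested cuticle genes, 0 were higher and 2 lower past the thresholds, beside 0.367% and 0.503% of all genes tested. The count past the thresholds ran from 1 to 9 over the alternatives (9 without control replicate 2). Both are described as larval/pupal rigid cuticle protein 66-like. LOC105389378 had 0.39, 1.19 and 1.75 FPKM in the DMNT libraries, against 8.34, 1.1 and 9.27 FPKM in the control libraries (log2 fold change -2.45, standard error 0.81), and control replicate 2 lay among the DMNT values. LOC105389379 had 0.14, 2.73 and 3.59 FPKM in the DMNT libraries, against 11.6, 4.77 and 16.4 FPKM in the control libraries (log2 fold change -2.31, standard error 0.85).

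In the moulting hormone response, ecdysone receptors and early genes time the making of cuticle. Its 17 listed genes summed to 277, 336 and 391 FPKM in the DMNT libraries and 337, 308 and 388 FPKM in the control libraries. These sums had the same order as tyrosine hydroxylase. Most of the difference between the control sums lay in LOC105382369, an ecdysteroid-regulated 16 kDa protein. That gene had 85.2, 118 and 135 FPKM in the DMNT libraries and 107.5, 76.9 and 157 FPKM in the control libraries. The order was not particular to moulting, since the sums of the nervous system list (338, 399 and 425 FPKM in the DMNT libraries, 387, 384 and 419 FPKM in the control libraries) and of the beta-alanine list had it too. Of these 17 genes 15 were tested and 0 passed the thresholds or an unadjusted p of 0.05 by edgeR, and whether the stage of the larvae differed between libraries was not tested.

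The enzymes that feed the pathway had fitted changes below 0, none of which passed the thresholds. Tyrosine hydroxylase and phenylalanine hydroxylase need tetrahydrobiopterin, which GTP cyclohydrolase, 6-pyruvoyl tetrahydrobiopterin synthase and sepiapterin reductase make and dihydropteridine reductase restores. Of 7 listed genes of tyrosine supply and this cofactor, 0 passed the thresholds. At an unadjusted p under 0.05 by edgeR stood 1, beside 3.43% of all genes tested. The log2 fold change was below 0 for all 7, with a median of -0.30, where 50.6% of all genes tested were below 0. The groups did not overlap for 2 of the 7, nor for 8.37% of all genes tested. Protein henna (LOC105388781), the phenylalanine hydroxylase that makes tyrosine, had 10.7, 19.5 and 15.6 FPKM in the DMNT libraries, against 24.8, 22.1 and 21.5 FPKM in the control libraries. All DMNT values lay below all control values, and the log2 fold change was -0.53 (standard error 0.22, unadjusted p of 0.0393 by edgeR, adjusted p = 0.9999), below the fold threshold. Without DMNT replicate 1 it was -0.33 with an unadjusted p of 0.0840, and the p was also above 0.05 without DMNT replicate 3, control replicate 1 or control replicate 3.

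The pair of GTP cyclohydrolase genes, which catalyse the first step to the cofactor, had like values. Their descriptions are alike as well, so reads of similar stretches may have been shared between them. LOC105390169 stood at 24.3, 48.7 and 24.9 FPKM in the DMNT libraries, against 44.3, 47.3 and 73.4 FPKM in the control libraries. DMNT replicates 1 and 3 were below all controls and DMNT replicate 2 was among them, and the log2 fold change was -0.72 (standard error 0.32, unadjusted p of 0.0545 by edgeR). Without DMNT replicate 2 it was -1.11 with an unadjusted p of 0.00634, past the thresholds, and without control replicate 3 it was -0.41. LOC105393140 had 47.0, 74.7 and 45.9 FPKM in the DMNT libraries, against 70.3, 71.0 and 114 FPKM in the control libraries (log2 fold change -0.58, standard error 0.27). The reductase LOC105383939 had 33.2, 39.6 and 39.8 FPKM in the DMNT libraries and 49.6, 47.9 and 45.8 FPKM in the control libraries, groups that did not overlap. Its log2 fold change was -0.30 (standard error 0.13, unadjusted p of 0.0554 by edgeR). The rest of the list had smaller changes. The log2 fold change was -0.19 (standard error 0.27) for 6-pyruvoyl tetrahydrobiopterin synthase and -0.14 (standard error 0.15) for sepiapterin reductase. For a probable pterin-4-alpha-carbinolamine dehydratase it was -0.04 (standard error 0.14).

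**Figure D4:**
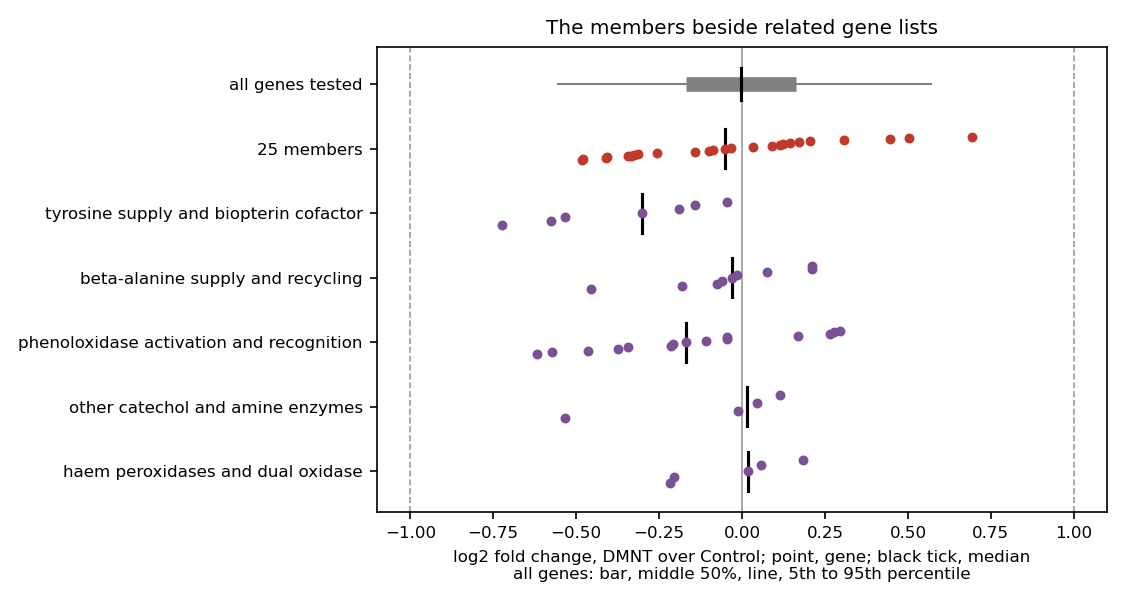
Log2 fold change of DMNT over control for the 25 members and for the tested genes of 5 related lists, each point a gene and each black tick a median, beside the spread of all genes tested. The 7 genes of tyrosine supply and biopterin cofactor are all below 0, with a median of -0.30, and the members are centred at -0.05.

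Beta-alanine, which the ebony enzyme of *Drosophila* joins to dopamine, is made from aspartate or uracil. Of 10 listed genes, 1 of which (LOC105383552, protein TANC2) matched by name only, 9 were tested, and 0 passed the thresholds or an unadjusted p of 0.05 by edgeR. The smallest p in the list was that of LOC105391913, described as cysteine sulfinic acid decarboxylase-like, the enzyme family that holds the aspartate decarboxylase of insects (log2 fold change -0.46, standard error 0.26, unadjusted p of 0.122 by edgeR). Next came a row that joins a dihydropyrimidine dehydrogenase with a subunit of RNA polymerase (LOC105388987 and LOC105388988, log2 fold change -0.18).

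Proteins that recognize microbes or cut the proenzyme stand between infection and phenoloxidase. The 23 genes listed here are peptidoglycan recognition proteins and serine proteases described as snake-like or easter-like. No gene described as a phenoloxidase activator is among them. Of the 23, 15 were tested and 0 passed the thresholds. At an unadjusted p under 0.05 by edgeR stood 1, beside 3.43% of all genes tested. Below 0 were 11 and above 0 were 4, with a median of -0.17. The gene under 0.05, LOC105387360 (serine protease easter-like), had 1.79, 2.03 and 2.23 FPKM in the DMNT libraries, against 4.11, 3.16 and 2.38 FPKM in the control libraries. Its groups did not overlap, and its log2 fold change was -0.62 (standard error 0.24, unadjusted p of 0.0328 by edgeR). Without control replicate 1 it was -0.40 with an unadjusted p of 0.154. For LOC105384195, of the same description, the change was -0.37 on that scale (standard error 0.25).

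Of the other enzymes that use catechols or amines, 4 were listed and tested, henna among them, and 0 passed the thresholds. Dopamine beta-hydroxylase-like LOC105395691 had 0.81, 0.81 and 0.66 FPKM in the DMNT libraries and 0.63, 0.53 and 1.0 FPKM in the control libraries, and its log2 fold change was 0.11. Of 10 listed haem peroxidase and dual oxidase genes, enzymes that cross-link proteins through tyrosine or make hydrogen peroxide, 5 were tested and 0 had an unadjusted p under 0.05 by edgeR. For dual oxidase (LOC105389437) the log2 fold change was -0.21 (standard error 0.16), and for a chorion peroxidase-like gene (LOC105385773) it was -0.22. The 7 listed genes of amine transport and dopamine reception, 3 of them described as serotonin transporters, were all below the filter, with summed levels of 0.756 to 1.15 CPM in the DMNT libraries and 1.36 to 1.62 CPM in the control libraries. With no filter 1 of the 7 passed the thresholds at these levels, beside 93 higher and 147 lower of all 21559 genes tested in that setting.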

How the data were processed

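Whole-body RNA of second-instar larvae was sequenced in 3 DMNT and 3 control libraries, grouped by their titles. The authors trimmed with cutadapt, mapped with Hisat, assembled and quantified genes with StringTie and compared groups with edgeR, in versions that neither paper nor labels name. The deposited counts are whole reads per gene or assembled locus without normalization, and the deposited FPKM are the authors' StringTie values. Strand use in counting is stated nowhere. Rows averaging 0.5 FPKM or more were kept. With TMM scaling, counts were tested by edgeR 4.0.16 (quasi-likelihood, glmQLFit and glmQLFTest), run under R 4.3.3 without covariates, p-values were adjusted over all 17709 genes by Benjamini-Hochberg, and the fit was tested on simulated data. Standard errors come from the fold change and its F statistic (log2 change over root F), and intervals use it with the degrees of freedom of the test. Lists were made from words in the gene descriptions, and members and lists were chosen with earlier results of these data known. Named members are the 3 most abundant of each role and the 6 with the smallest p, and 5 members outside that rule are given too so that all 25 appear. From each related list those past the thresholds and the 2 smallest p were named. Other members of the cofactor list were added with their values in view, so that all 7 appear. The neighbouring loci and hemocytin were picked with their values in view. Alternatives were other filters, RLE and upper-quartile scaling, a robust fit, DESeq2 1.42.0, limma 3.58.1 on log2(FPKM + 0.1) and log2(FPKM + 1), the replicate number as a block, rows of one symbol summed, and leaving out each library. Neighbouring genes were taken from the numbers of the assembled loci and from the RefSeq annotation of the newer assembly ilPluXylo3.1, in which 20 of 25 members had a symbol, with no coordinates used. No sequences are printed.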

Additional observations from a re-analysis of the deposited data

How the results depend on the processing

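None of the 25 members passed the thresholds under any alternative that kept all libraries. The count of members past them was 0 to 1 when each library was left out, the 1 being LOC105394051 without DMNT replicate 2. Members at an unadjusted p under 0.05 were 0 with all libraries in the fit described, 1 each with no filter, upper-quartile scaling, the robust fit, DESeq2, either limma fit, rows of one symbol summed and the replicate block, and 0 to 2 when each library was left out. With all libraries kept the gene was LOC105382593 or LOC105395711, or under the block LOC105394051 (-0.50, unadjusted p of 0.0418). With a library left out it was also LOC105394051, LOC105380304 or LOC105390880. Under the block LOC105386870 was at -0.62 (unadjusted p of 0.0600) and LOC105387360 at an unadjusted p of 0.0593. The median over the members ran from -0.18 to 0.056 when each library was left out. All genes past the thresholds were 154, against 240 with no filter, 84 with a mean FPKM of at least 2, 84 with limma on log2(FPKM + 1), and 162 to 271 when each library was left out. The related and marker lists together had 6 genes past the thresholds, against 3 with a mean FPKM of at least 2 and 2 to 15 when each library was left out. With all libraries kept the sign turned for LOC105380417, to -0.011 under the block, -0.055 with limma on log2(FPKM + 0.1) and -0.047 on log2(FPKM + 1). When each library was left out signs also turned, and the values ran from -0.23 to 0.30 for LOC105380417, -0.69 to 0.0094 for LOC105396413, -0.16 to 0.051 for LOC105380741, -0.086 to 0.46 for LOC105383913, -0.26 to 0.34 for LOC105380584, -0.55 to 0.20 for LOC105397990, -0.20 to 0.63 for LOC105380496, -0.053 to 0.42 for LOC105383492, -0.57 to 0.16 for LOC105383933, -0.18 to 0.15 for LOC105386687, -0.99 to 0.014 for LOC105386870, -0.60 to 1.04 for LOC105388861 and -0.087 to 0.47 for LOC105395691. Replicate numbers were used as a block, and the deviations of the libraries from their group means were correlated. The correlations were 0.101, 0.0434 and 0.119 for DMNT and control libraries of the same number (1, 2 and 3). For libraries of different numbers they ran from -0.145 to 0.0575. Whether the numbers pair the libraries was not tested. The cause of the differences between the settings was not tested.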
